A study of Homo sapiens with 26 samples.

Results

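The proteasome genes were followed through arsenite stress in HCT116 cells, a human colorectal carcinoma line. Genes were chosen by symbol and level, as protein-coding genes whose symbol begins with PSMA, PSMB, PSMC, PSMD, PSME, PSMF or PSMG and a digit, at 10 CPM or more of all counts of the library (unscaled CPM) in at least 12 of the 26 libraries. Levels elsewhere are CPM of the summed counts of the 9099 genes tested, scaled by the trimmed mean of M-values (TMM), except where given as unscaled CPM. Of 50 genes with such a symbol, 43 passed the level and were among the 9099 genes tested. Of these, 41 encode parts, regulators or assembly factors of the proteasome. PSMC3IP, a recombination cofactor, and PSME3IP1, a binding partner of PSME3, share only the letters, were counted with the 43 and are described apart.

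The proteasome is the protease that degrades ubiquitin-tagged proteins in cytosol and nucleus. Its 20S core is a barrel of alpha rings, which guard the entrance, and beta rings, which hold the proteolytic sites. The 19S regulatory particle binds the ends of the barrel. Its ATPases (PSMC genes) unfold the substrate, and its non-ATPase subunits (most PSMD genes) recognise, deubiquitinate and scaffold. PSME genes encode other activators, and dedicated chaperones build the core (PSMG1 to PSMG4) and the base of the 19S particle (PSMD5, PSMD9 and PSMD10). Arsenite binds protein thiols and damages proteins, and the proteasome clears such proteins.

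The study asked how RNA levels depend on positions in the disordered linkers of the RNA-binding protein IGF2BP1, with and without stress. The cells carried Tet-OsTIR1-PURO, had IGF2BP2 and IGF2BP3 knocked out, and expressed mCherry-IGF2BP1 from a lentivirus under the hPGK promoter, in FACS-sorted narrow-gate populations rather than clones. The populations expressed WT protein, S181E, Y396E (a serine or tyrosine replaced by glutamate, which mimics phosphorylation) or RQ (R167Q, R168Q, R174Q and R178Q, arginines of the first linker replaced by glutamine). Each was given 500 µM sodium arsenite for 2 h or PBS as control, with 3 separately plated dishes per group, which made 24 libraries of poly(A) RNA from clarified lysate. HCT116 cells labelled without these changes gave 1 control and 1 arsenite library, which stayed out of every test.

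Library totals ran from 22508145 to 50834401 counts. Y396E arsenite replicate 3 stood apart, with 13897 genes at 1 count or more against at least 20850 in each of the other 25 libraries. Protein-coding genes held 89.5% to 91.7% of the counts in WT and RQ control libraries, 94.7% to 95.9% in S181E and Y396E control libraries, and 97% to 98.3% in the arsenite libraries of the 4 populations. Transcripts of IGF2BP1 were at 0.347 and 0.645 CPM in the parental control and arsenite library, at 10.6 to 20.4 CPM in the control libraries of the 4 populations and at 27.9 to 48.0 CPM in their arsenite libraries. IGF2BP2 (62.3 to 91.3 CPM) and IGF2BP3 (109 to 166 CPM) RNA was present in all 24 libraries, so these counts do not show the loss of the knocked-out proteins. Of 8 epithelial markers 6 were at 10 unscaled CPM or more in every library, VIL1 and LGR5 being the others, and of 7 markers of blood, endothelial and stromal cells 6 stayed under 1 unscaled CPM, the exception being COL1A1 at up to 11.7. In bulk RNA, fewer cells with a transcript and less of it per cell cannot be told apart.

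Promoter sequence was examined for motifs of stress-responsive factors. RefSeq promoters (GRCh38.p14) were held for 35 of the 41 proteasome genes, with none for PSMA7, PSMB1, PSMB6, PSMB7, PSMD4 and PSMG3. The 250 bases before each start were searched on both strands for TGACNNNGC, the core of the antioxidant response element bound by NFE2L1 and NFE2L2 with small MAF partners, for CCAAT, and for the heat shock element pairs GAANNTTC and TTCNNGAA. No match of one motif overlapped a match of another. Stretches free of annotated exons are shown for PSMD1, the gene with the largest rise in arsenite, for PSMD12 and PSMD3, 19S genes that rose and hold TGACNNNGC, and for PSMB5, a core gene that fell in WT cells. Capitals mark the matches (the reverse complement where the match is on the other strand), and all are written on the strand of the gene:
PSMD1, chr2:231056617-231056844, plus strand: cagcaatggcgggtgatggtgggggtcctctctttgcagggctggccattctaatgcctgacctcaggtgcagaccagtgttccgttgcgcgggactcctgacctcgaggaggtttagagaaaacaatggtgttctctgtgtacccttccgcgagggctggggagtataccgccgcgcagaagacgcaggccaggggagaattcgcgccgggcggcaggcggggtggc
PSMD12, chr17:67366606-67366827, minus strand: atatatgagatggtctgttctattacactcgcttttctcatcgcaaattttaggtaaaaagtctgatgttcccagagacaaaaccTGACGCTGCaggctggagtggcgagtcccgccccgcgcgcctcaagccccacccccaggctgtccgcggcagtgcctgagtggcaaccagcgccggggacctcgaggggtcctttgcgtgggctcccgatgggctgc
PSMD3, chr17:39980557-39980806, plus strand: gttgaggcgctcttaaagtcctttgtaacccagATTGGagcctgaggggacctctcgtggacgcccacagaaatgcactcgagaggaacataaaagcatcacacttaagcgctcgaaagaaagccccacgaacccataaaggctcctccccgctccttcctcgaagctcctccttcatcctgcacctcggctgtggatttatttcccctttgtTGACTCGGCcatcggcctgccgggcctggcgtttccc
PSMB5, chr14:23034901-23035111, minus strand: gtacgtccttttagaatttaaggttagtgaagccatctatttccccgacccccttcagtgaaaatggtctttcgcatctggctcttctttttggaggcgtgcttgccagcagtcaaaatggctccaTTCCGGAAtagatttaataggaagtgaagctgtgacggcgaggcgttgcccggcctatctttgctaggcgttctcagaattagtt

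The PSMD1 stretch ended 23 bases before the listed start and held none of the motifs. PSMD12 held TGACGCTGC at 165 bases before its start, PSMD3 held TGACTCGGC at 37 bases before its start and a CCAAT box on the other strand at 217 bases, and PSMB5 held TTCCGGAA at 85 bases before the nearer of its listed starts. Over the 35 genes, TGACNNNGC was present in 12 promoters (34.3%), against 16.0% of the 7508 tested genes with a promoter. By group it was found in 3 of 16 promoters (18.8%) of 19S genes (PSMC5, PSMD3 and PSMD12) and 2 of 8 of 20S genes (PSMA4 and PSMB3). It was also in 4 of 6 of assembly genes (PSMD5, PSMD9, PSMG1 and PSMG2) and 3 of 5 of activator and inhibitor genes (PSME1, PSME2 and PSME4). Of these genes PSMA4, PSMD3, PSMD5, PSMD12 and PSME4 rose with arsenite in WT cells and PSMD9 fell. PSMB3, PSMC5, PSME1, PSME2, PSMG1 and PSMG2 were not called there. CCAAT was in 16 promoters (45.7%, against 41.9% of tested genes), TTCNNGAA in 3 (8.57% against 6.99%: PSMB5, PSMD5 and PSMD6) and GAANNTTC in 0 (against 5.31%). A match is a string of letters in this window and not a bound site. The TGACNNNGC matches of PSMA4, PSMC5, PSME2 and PSME4 lay in windows covered entirely by annotated exons. A gene with several listed starts was counted if any of its windows matched, among members and all tested genes alike.

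In control WT cells the beta genes of the core had the most transcript per length by group median. They had a median of 238 CPM per kb of annotated exon, from 58.2 for PSMB2 to 339 for PSMB4. The 5 alpha genes tested had a median of 40.9 CPM per kb, with PSMA7 highest at 248. Non-ATPase genes of the 19S particle had a median of 78.4, its ATPases of 44.4, the activators and inhibitor of 56.1 and the assembly chaperones of 30.5 CPM per kb, so the chaperone transcripts were the scarcest group. Annotated exon length includes exons that these cells may not use, so levels per kb are approximate.

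The 7 genes below the level were PSMA2, PSMA6, PSMA8, PSMB8, PSMB9, PSMB10 and PSMB11. PSMA2 and PSMA6, alpha subunits of every core, were listed at no more than 0.635 and 9.34 unscaled CPM in any library. Of their exon bases, 94.7% and 63.9% were shared with another gene on the same strand, and reads in shared bases were not counted, so these values are no measure of the transcripts. The same applied to 41.4% of the exon bases of PSMA1, which was tested. Just outside the level lay PSMB9, at 10 unscaled CPM or more in 5 libraries, and just inside lay PSMG4, between 13.9 and 32.4 unscaled CPM, which passed in all 26. The 44 pseudogenes with PSM symbols summed to between 2.06 and 4.27 unscaled CPM in a library.

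Arsenite raised the RNA of the 19S particle and left the level of most core genes within 1.2-fold. In WT cells 15 of the 17 19S genes with PSM symbols rose and 0 fell. Their median log2 change was 0.54, against a median of -0.01 over all 9099 genes. Of the 12 core genes tested 1 rose (PSMA4) and 1 fell (PSMB5), with a median of 0.02. Of the 7 assembly chaperones 3 fell (PSMG3, PSMG4 and PSMD9) and 1 rose (PSMD5), and among the activators PSME4 rose. Of all tested genes 36.3% rose and 35.9% fell, so 3 falls among 7 chaperones lie near that share. A gene was called changed by edgeR's quasi-likelihood test at a Benjamini-Hochberg adjusted p below 0.05 over all genes and a fold above 1.2. By this rule 23 of the 43 genes were called in WT cells, 18 up and 5 down, where 72.2% of all tested genes were called. The share called was thus smaller than among all genes, and it differed from part to part of the complex.

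**Figure D1:**
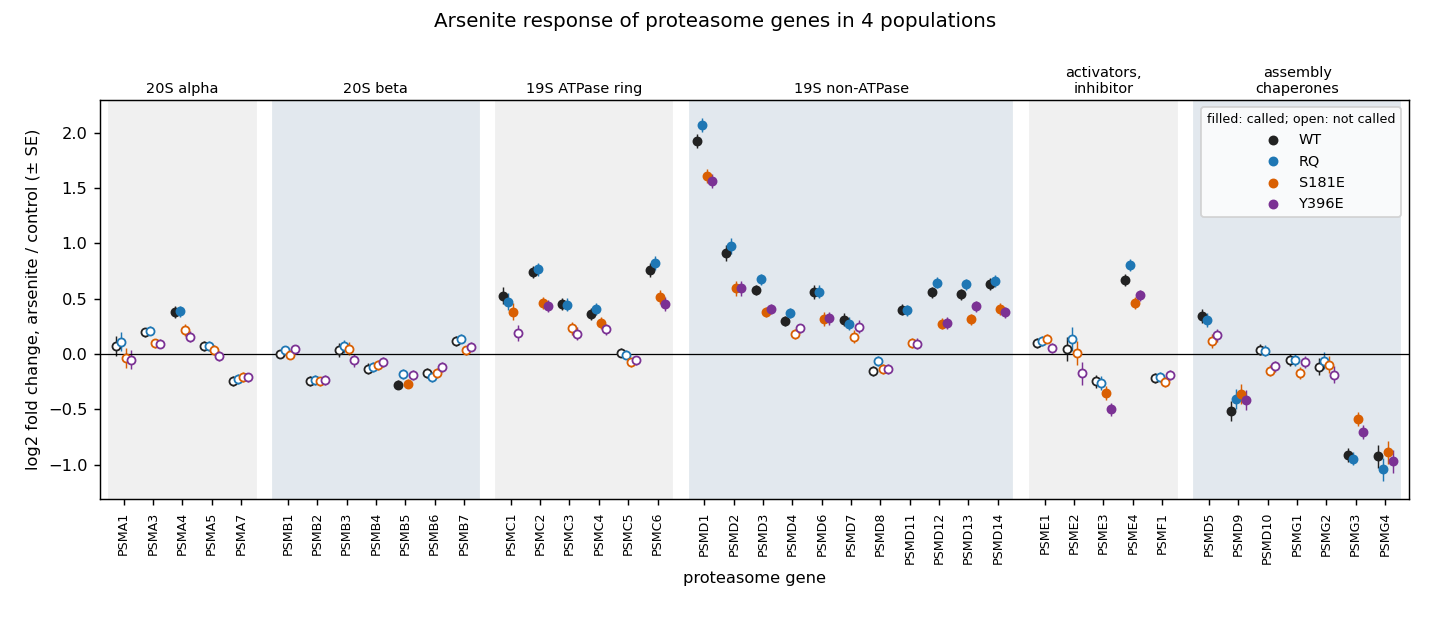
Log2 fold change of arsenite over control (vertical axis, bars are ± 1 standard error) for each of the 41 proteasome genes, ordered by role along the horizontal axis, in WT, RQ, S181E and Y396E cells (n = 3 libraries per group); filled points were called. The 19S genes lie above 0 except PSMC5 and PSMD8, most core genes lie within 0.26 of 0, PSMG3, PSMG4 and PSMD9 lie below it, and PSMD1 is the highest in each population.

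PSMD1 (ENSG00000173692.14, chromosome 2, 231056845 to 231173116 on the plus strand in hg38), the large scaffold subunit of the 19S base that docks ubiquitin receptors, had the largest change of the set. Its level in WT cells was 60.7, 57.9 and 61.0 CPM in the control libraries and 224, 231 and 226 CPM in the arsenite libraries. Every arsenite library was more than 3 times as high as every control library. The log2 change was 1.92 ± 0.06 (SE; adjusted p = 1.18e-18, edgeR). In RQ cells PSMD1 went from between 46.6 and 55.7 CPM to between 218 and 220.2 CPM, a log2 change of 2.07 ± 0.06.

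In S181E cells its control libraries held 90.5, 84.4 and 88.0 CPM and its arsenite libraries 272, 262 and 269 CPM (log2 change 1.61 ± 0.06). In Y396E cells the control libraries held 79.2, 83.4 and 79.5 CPM and the arsenite libraries 255, 251 and 209 CPM (log2 change 1.56 ± 0.06). The lowest of these, 209 CPM, was in Y396E arsenite replicate 3, the library that stood apart. The parental pair pointed the same way, with 69.3 CPM in control and 239.7 CPM in arsenite.

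PSMD2 (ENSG00000175166.17, chromosome 3, 184299241 to 184309050, plus strand), the other large scaffold of the base, followed with 261, 201 and 253 CPM in WT control and 452, 441 and 454 CPM in WT arsenite libraries. WT control replicate 2 was the lowest of the control libraries, and still no control library reached an arsenite library. The log2 change was 0.91 ± 0.07 in WT and 0.98 ± 0.07 in RQ cells, and 0.59 ± 0.07 in S181E and in Y396E cells. Among the non-ATPase genes the next rises in WT cells were PSMD14, the deubiquitinase of the lid (0.63 ± 0.05), and the lid scaffold PSMD3 (0.58 ± 0.05). The remaining called rises of this group, PSMD4, PSMD6, PSMD7, PSMD11, PSMD12 and PSMD13, lay between 0.30 and 0.56. PSMD8, a lid subunit, was at -0.15 ± 0.05 and was not called.

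Of the ATPase ring, 5 of 6 genes rose in WT cells. PSMC6 (ENSG00000100519.12, chromosome 14, 52707178 to 52728590, plus strand) changed most, from 43.9, 40.0 and 41.7 CPM to 70.7, 71.8 and 70.8 CPM (log2 change 0.76 ± 0.06, adjusted p = 4.04e-11 in edgeR). PSMC2 rose from 79.5, 75.4 and 74.7 CPM to 124, 135 and 125 CPM (0.74 ± 0.06). In both genes the arsenite libraries all lay above the control libraries. PSMC1, PSMC3 and PSMC4 rose by 0.53, 0.45 and 0.36, and PSMC5 was at 0.01 ± 0.04.

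The same parts moved in the other populations. In RQ cells 15 of 17 19S genes rose (median 0.56), in S181E cells 11 (median 0.31) and in Y396E cells 9 (median 0.28), with 0 falls in each, and the medians over all genes lay between -0.03 and -0.01. Of all tested genes 37.1% rose and 35.8% fell in RQ, 32.0% and 33.3% in S181E, and 32.9% and 32.9% in Y396E cells. At an unadjusted p below 0.05, PSMD8 was the lone lower 19S gene, in WT, S181E and Y396E cells (-0.15, -0.13 and -0.13), and DESeq2 called 14, 11 and 9 19S genes in RQ, S181E and Y396E cells. PSMD1, PSMD2, PSMD3, PSMD6, PSMD12, PSMD13, PSMD14, PSMC2 and PSMC6 rose in all 4 populations. Over the 43 genes 22 were called in RQ cells (72.9% of all tested genes), 18 in S181E cells (65.3%) and 15 in Y396E cells (65.8%). Without replicate 3 of the arsenite group, 19 were called in Y396E cells, with PSMC1, PSMC3 and PSMC4 added to the rises and PSMB2 to the falls.

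The core genes stayed closer to their control level. PSMA4, an alpha subunit, rose in WT cells from 197, 179.9 and 195 CPM to 252, 254 and 239 CPM, a log2 change of 0.38 ± 0.05, and it rose by 0.38 ± 0.05 in RQ cells. It was at 0.22 in S181E and 0.16 in Y396E cells and was not called there. PSMB5, the chymotrypsin-like catalytic subunit, fell in WT cells from 231, 234 and 219 CPM to 190.2, 186 and 189 CPM, a log2 change of -0.28 ± 0.04. It fell in S181E cells too (-0.27) and was at -0.18 and -0.19 in RQ and Y396E cells, not called. These falls lie at the edge of the fold threshold, and scaling by library totals ended both calls. Each call was also lost on leaving out any of 13 single libraries, not the same 13 for both. In S181E cells the call was lost as well under DESeq2, its size factors (RLE) and the fit of only the groups compared.

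The other catalytic subunits moved less. PSMB6, the caspase-like subunit, had 207, 218 and 197 CPM in WT control and 186, 182 and 185 CPM in WT arsenite libraries (log2 change -0.17 ± 0.05, not called). PSMB7, the trypsin-like subunit, had 190.5, 182 and 190.5 CPM in control and 202, 205 and 205 CPM in arsenite libraries (0.12 ± 0.04, not called). In Y396E cells 0 of the 12 core genes were called by edgeR and 0 by DESeq2, and 6 had an unadjusted p below 0.05.

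Summed over its 12 genes, the core changed from 2621 ± 50.6 CPM in WT control to 2542 ± 7.11 CPM in WT arsenite libraries (SD, n = 3). The 17 genes of the 19S particle went from 2306 ± 93.7 to 3300 ± 11.2 CPM. The ratio of the 19S sum to the 20S sum, which does not depend on library scaling, was 0.898, 0.828 and 0.915 in the WT control and 1.29, 1.30 and 1.31 in the WT arsenite libraries. RQ cells went from 0.864 ± 0.038 to 1.29 ± 0.02, S181E cells from 0.992 ± 0.023 to 1.30 ± 0.04 and Y396E cells from 0.968 ± 0.020 to 1.26 ± 0.01. The ratio was higher in arsenite in every population, and the group means spanned 0.864 to 0.992 in control and 1.26 to 1.30 in arsenite cells. The core sum leaves out PSMA2 and PSMA6. The 19S sum leaves out subunits and bound factors without a PSM symbol, among them SEM1, ADRM1 and UCHL5, so it covers only part of the particle.

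**Figure D2:**
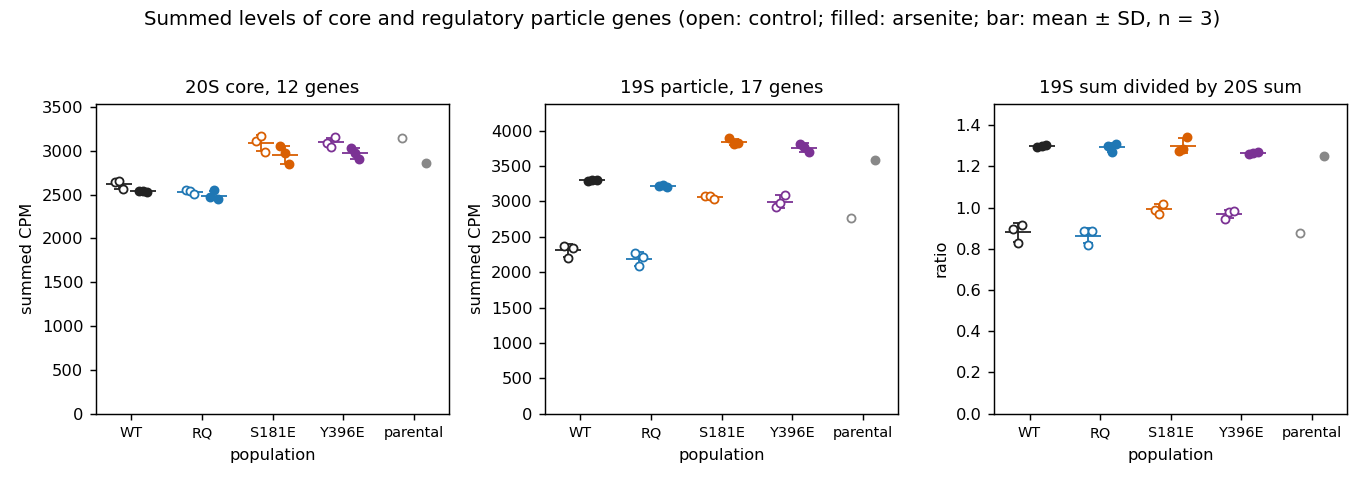
Summed CPM of the 12 core genes, summed CPM of the 17 genes of the 19S particle, and the ratio of these sums (vertical axes), for each library of the WT, RQ, S181E, Y396E and parental cells (horizontal axis; open points control, filled points arsenite, with mean ± SD for n = 3; parental n = 1). The core means are at most slightly lower in arsenite in the 4 populations, whereas the 19S sum and the ratio are higher in every arsenite library than in any control library of the same cells.

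Of the assembly chaperones 3 fell, among them the pair with the largest decreases of the set. PSMG3 and PSMG4 form the chaperone pair that assists the alpha ring. PSMG3 (ENSG00000157778.9, chromosome 7, 1567332 to 1571005, minus strand) went from 96.1, 111 and 96.9 CPM in WT control to 53.3, 53.2 and 55.0 CPM in WT arsenite libraries (log2 change -0.91 ± 0.06, adjusted p = 1.31e-12 in edgeR). PSMG4 (ENSG00000180822.12, chromosome 6, 3231807 to 3303373, plus strand) went from 34.5, 34.1 and 28.2 CPM to 16.9, 16.4 and 17.7 CPM (-0.92 ± 0.10). No arsenite library overlapped a control library for either gene. Their log2 changes were -0.94 and -1.04 in RQ, -0.59 and -0.89 in S181E, and -0.70 and -0.97 in Y396E cells, all called.

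PSMD9, a chaperone of the 19S base, had 40.3, 45.4 and 41.7 CPM in WT control and 29.2, 28.8 and 31.0 CPM in WT arsenite libraries (-0.52 ± 0.09) and fell in all 4 populations, although 14.3% of its exon bases are shared with another gene. PSMD5, another chaperone of the base, rose in WT cells from 50.0, 45.0 and 47.3 CPM to 54.6, 63.9 and 62.2 CPM (0.35 ± 0.06) and in RQ cells by 0.31. It was at 0.12 and 0.17 in S181E and Y396E cells, not called. The third base chaperone PSMD10 (0.04 ± 0.05 in WT) and the alpha-ring chaperones PSMG1 (-0.05 ± 0.05) and PSMG2 (-0.11 ± 0.08) were not called in any population. PSMD10 had 50.7 to 52.7 CPM in WT control and 52.3 to 55.0 CPM in WT arsenite libraries, PSMG1 77.4 to 82.4 and 75.4 to 77.9, and PSMG2 70.0 to 76.1 and 65.6 to 69.7. PSMG3, PSMG4 and PSMD9 were the chaperones called lower in each population.

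Among the activators, PSME4 (PA200, a nuclear cap of the core; ENSG00000068878.15, chromosome 2, 53864069 to 53970993, minus strand) rose in each population. It went from 48.6, 44.03 and 48.0 CPM to 76.0, 73.7 and 74.6 CPM in WT cells (0.67 ± 0.05, adjusted p = 2.41e-11 in edgeR). The log2 changes in RQ, S181E and Y396E cells were 0.80, 0.46 and 0.53. PSME3, the nuclear PA28 gamma activator, had 256, 250.2 and 252 CPM in WT control and 213, 216 and 211 CPM in WT arsenite libraries (-0.25 ± 0.06, not called for its size). It fell in S181E cells (-0.35 ± 0.06) and in Y396E cells (-0.50 ± 0.06).

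PSME1 and PSME2, the interferon-inducible PA28 subunits, were not called in any population. In WT cells PSME1 had 136, 134 and 143 CPM in control and 147, 147 and 149.6 CPM in arsenite libraries. PSME2 had 84.7, 85.3 and 82.6 CPM and then 82.7, 87.7 and 90.3 CPM, and its low value of 52.3 CPM in Y396E arsenite replicate 3 stood apart from 87.6 and 87.7 CPM in the other replicates. The inhibitor PSMF1 (PI31) had 150.3, 150.2 and 147 CPM in control and 129, 130.1 and 127 CPM in arsenite libraries of WT cells. Its log2 changes lay between -0.25 and -0.19 in the 4 populations and it was not called.

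**Figure D3:**
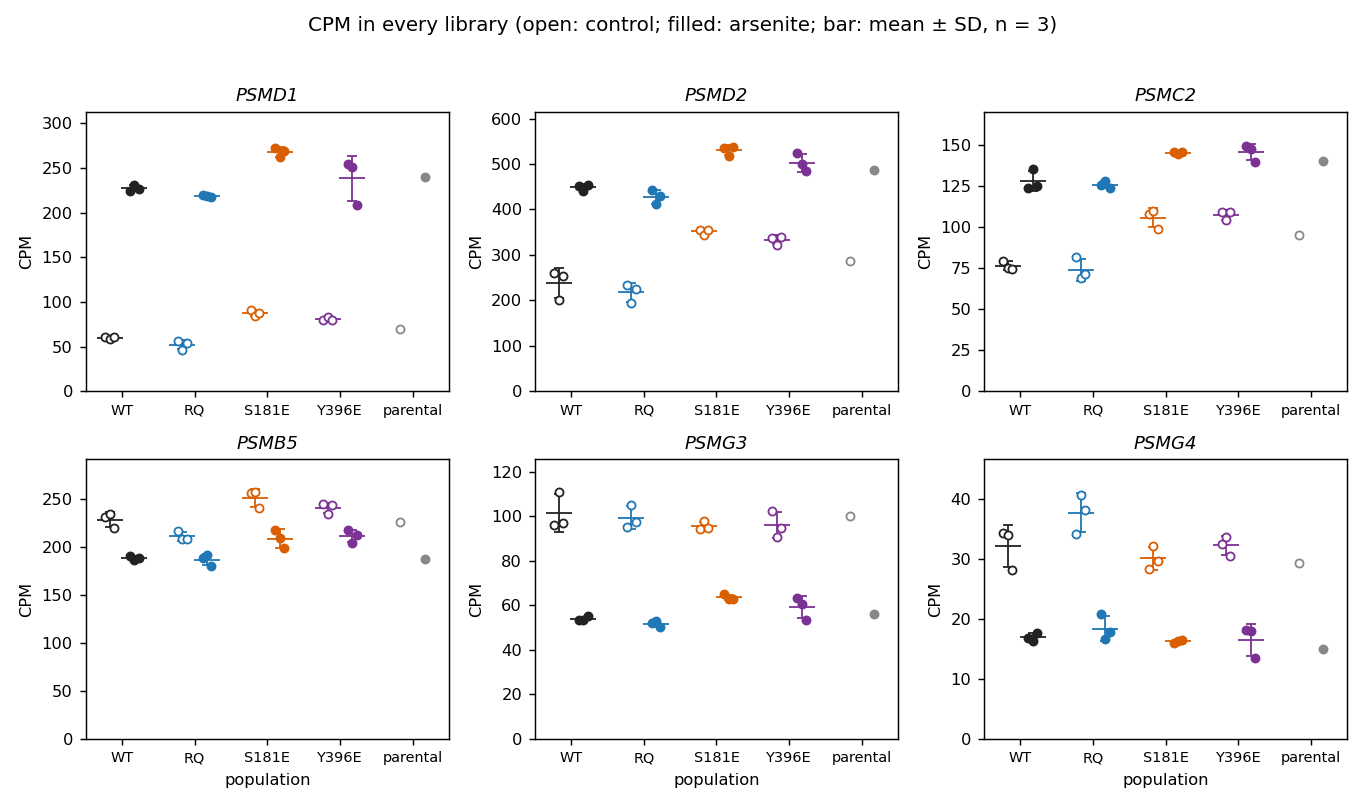
CPM (vertical axes) of PSMD1, PSMD2, PSMC2, PSMB5, PSMG3 and PSMG4 in each library of the WT, RQ, S181E, Y396E and parental cells (horizontal axis; open points control, filled points arsenite, bars are mean ± SD of 3 libraries; parental n = 1). PSMD1, PSMD2 and PSMC2 are higher and PSMG3 and PSMG4 lower in every arsenite library than in any control library of the same cells, and for PSMD1, PSMD2 and PSMC2 the S181E and Y396E control points lie above the WT control points.

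The inducible catalytic subunits of the immunoproteasome had few counts. In WT cells PSMB8 had 0.399, 0.333 and 0.498 CPM in control and 0.583, 0.611 and 0.394 CPM in arsenite libraries. PSMB9 had 6.16, 6.95 and 5.27 CPM in control and 5.33, 5.79 and 6.18 CPM in arsenite libraries, and PSMB10 had 2.02, 1.37 and 1.64 CPM and then 1.71, 1.44 and 1.42 CPM. Control and arsenite libraries overlapped for each of these genes in WT cells. For PSMB8 they did not overlap in RQ cells (0.204 to 0.481 CPM in control, 0.748 to 1.00 in arsenite) or in Y396E cells (0.700 to 1.12 in control, 1.48 to 4.00 in arsenite), all low values without a test. Of the exon bases of PSMB10 38.3% were shared with another gene on the same strand, as were 12% of those of PSMB9, and reads there were not counted for either gene. The highest values of the 3 genes in arsenite libraries, 4.00 CPM for PSMB8, 17.3 CPM for PSMB9 and 3.44 CPM for PSMB10, were all in Y396E arsenite replicate 3. PSMB9 control levels were 6.13 ± 0.84 CPM in WT, 9.77 ± 1.64 in S181E and 10.7 ± 0.54 in Y396E cells (SD, n = 3), a description without a test because these genes were below the level for testing.

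The parental pair had no replicates and no test. There 15 of the 17 19S genes were higher in arsenite (median log2 difference 0.36), 2 of the 12 core genes were (median -0.08), and 1 of the 7 chaperones was (PSMD5, 0.21). PSMG4 and PSMG3 were the lowest of the 43 genes at -0.94 and -0.83, PSMD1 the highest at 1.78. The 19S to 20S ratio went from 0.879 to 1.25.

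RQ cells were compared with WT cells to ask whether the linker arginines matter for these transcripts. None of the 43 genes was called in control cells by edgeR or by DESeq2, where 1.43% of all tested genes were. Of the 43, 9 had an unadjusted p below 0.05, as had 1285 of all 9099 tested genes. In arsenite 0 were called by either tool (1.52% of all tested genes), and 1 had an unadjusted p below 0.05 (1020 of all tested genes). The differences lay between -0.20 (PSMD1) and 0.23 (PSMG4) in control cells and between -0.16 (PSMD11) and 0.11 (PSMG4) in arsenite, with standard errors of 0.04 to 0.11 outside PSMC3IP. Most lay below 0, with 6 of the 43 above it in control cells and 11 in arsenite. The medians were -0.05 and -0.03, against -0.002 and 0.0015 over all genes. The responses to arsenite differed between RQ and WT cells for 0 genes by either tool (0.22% of all tested genes), with 0 at an unadjusted p below 0.05.

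S181E and Y396E cells had more proteasome RNA than WT cells before stress. The core sum in control cells averaged 3088 CPM in S181E, 3096 in Y396E, 2621 in WT and 2532 in RQ cells. The 19S sum averaged 3061, 2997, 2306 and 2188 CPM in the same order. The 1 parental control library, which had no test, also lay above the WT means, at 3152 CPM for the core and 2770 CPM for the 19S particle. In control cells 19 of the 43 genes were higher in S181E than in WT cells and 0 lower, with 31.1% of all tested genes called and a median of 0.02 over all genes. In Y396E cells 18 were higher and 0 lower (28.6% of all tested genes). Among all tested genes the calls split about evenly, 15.7% higher and 15.4% lower in S181E and 14.5% and 14.2% in Y396E cells. No member was lower by the same rule under DESeq2. The members' unadjusted p was below 0.05 for 34 of the 43 genes in S181E and 33 in Y396E cells. Of all 9099 tested genes it was below 0.05 for 4915 in S181E and 4649 in Y396E cells.

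The 19S genes differed most. Of 17, 15 were higher in S181E cells (median 0.45), with PSMC6 and PSMD8 not called, and 14 in Y396E cells (median 0.43), where PSMC4 was not called either. PSMD2 was at 261, 201 and 253 CPM in WT, 355, 344 and 355 CPM in S181E and 337, 321 and 340.2 CPM in Y396E control libraries. Every mutant library lay above every WT library, and the log2 differences were 0.56 ± 0.07 (adjusted p = 5.14e-07, edgeR) and 0.48 ± 0.07 (adjusted p = 5.24e-06). PSMD1 was higher by 0.55 ± 0.06 and 0.43 ± 0.06, at the levels given above. PSMD11, a lid subunit, was at 132, 119 and 131 CPM in WT, 181.4, 188 and 188 CPM in S181E and 165, 181.3 and 187 CPM in Y396E control libraries (0.54 ± 0.05 and 0.48 ± 0.05).

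Among the ATPases PSMC2 differed most, at 108, 110.2 and 99.2 CPM in S181E and 109, 104 and 109 CPM in Y396E control libraries against 74.7 to 79.5 CPM in WT (0.47 ± 0.06 and 0.49 ± 0.06). In the core, 4 of 12 genes were called in each mutant, PSMA3, PSMA4, PSMB3 and PSMB7 in S181E and PSMA4, PSMA5, PSMB1 and PSMB3 in Y396E cells. The core medians were 0.26 and 0.25, at the fold threshold. An adjusted p below 0.05 was reached by 11 and 10 of the 12, of which 4 in each mutant also passed the fold threshold. PSMA4 had 254.5, 255 and 229.9 CPM in S181E and 249.6, 249 and 248 CPM in Y396E control libraries, against 179.9 to 197 CPM in WT, with no overlap.

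Activators and chaperones showed no such calls. Of the 5 activator and inhibitor genes and the 7 chaperones 0 were called in either mutant in control cells by edgeR or DESeq2. Unadjusted p below 0.05 was reached by 2 of the 5 and 3 of the 7 in S181E, and by 2 of the 5 and 3 of the 7 in Y396E cells. PSMG3 was at -0.09 ± 0.06 in S181E and -0.08 ± 0.06 in Y396E, and PSMG4 at -0.10 ± 0.10 and 0.00 ± 0.10, with libraries that overlapped those of WT.

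The share of protein-coding counts was 94.7% to 95.9% in these mutant control libraries and 89.6% to 91.7% in the WT control libraries, and IGF2BP1 RNA was at 18.6 ± 1.56 and 16.5 ± 1.18 CPM in S181E and Y396E against 12.1 ± 2.27 CPM in WT control cells (SD, n = 3). The part of either in the differences was not tested. Under scaling by library totals the median of all genes was 0.18 in S181E and 0.14 in Y396E, against 0.02 and 0.01, and the calls became 35 and 32 of the 43. The calls among all tested genes grew too, to 42.7% in S181E cells, and 83.6% of those calls were higher. Measured from the median of all genes, the 19S median in S181E was 0.43 under either scaling.

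In arsenite fewer of these differences remained past the threshold. In S181E cells 3 genes were higher than in WT (PSMC1, PSMD13 and PSMB3) and 0 lower, with 13.7% of all tested genes called, 5.32% higher and 8.42% lower. In Y396E cells 6 were higher (PSMB1, PSMB4, PSMB6, PSMD3, PSMD7 and PSMD13) and 0 lower (21.7% of all tested genes, 9.77% higher and 11.9% lower). No lower member was called by DESeq2 either, which called 7 and 6 genes higher. In S181E the call of PSMC1 was lost on leaving out any of 11 single libraries and that of PSMD13 on leaving out either of 2, and 5 genes were called without S181E arsenite replicate 3. In Y396E, PSMD3 and PSMD7 were not called without arsenite replicate 3, the library that stood apart, which left 5 genes with PSMB3 added. The 19S medians were 0.23 and 0.18 and the core medians 0.21 in each mutant. PSMD13, a lid subunit, was called in both, at 232, 234 and 222 CPM in WT, 287, 284 and 266 CPM in S181E and 287, 277 and 308 CPM in Y396E arsenite libraries (0.28 ± 0.05 and 0.34 ± 0.05). All mutant libraries were above all WT libraries for this gene.

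**Figure D4:**
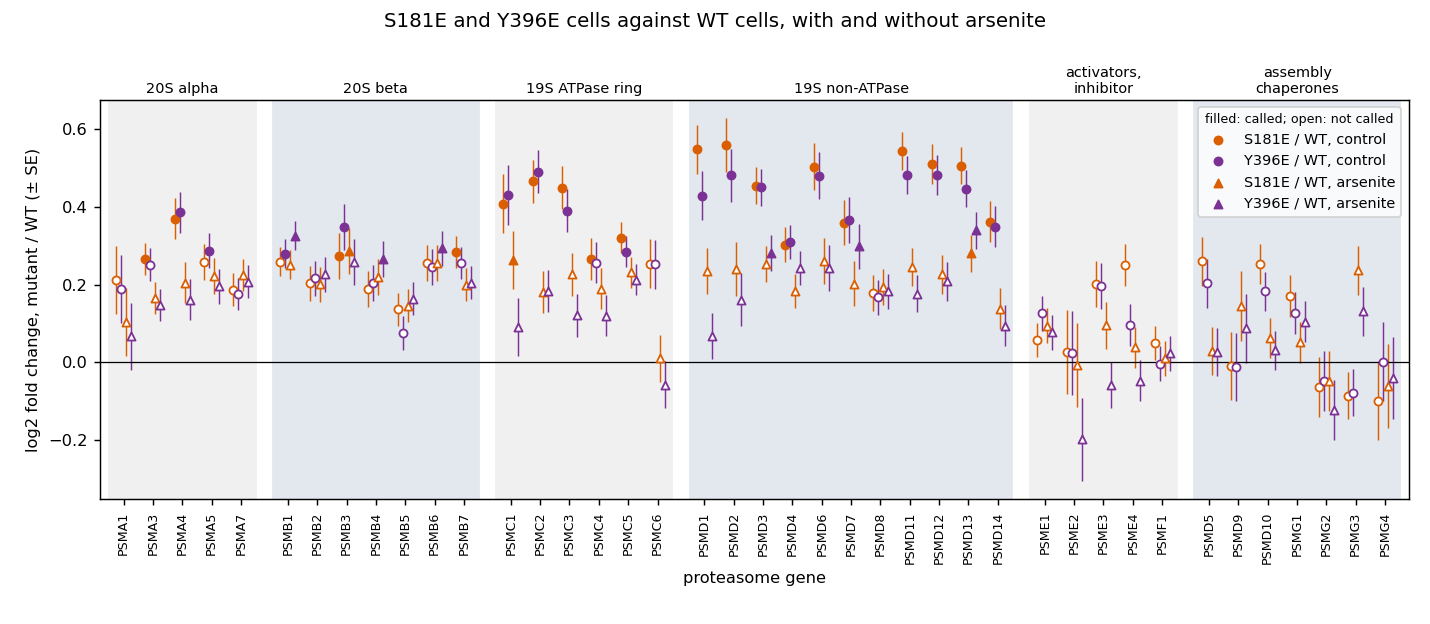
Log2 difference from WT (vertical axis, bars are ± 1 standard error, n = 3 libraries per group) for each of the 41 proteasome genes by role, for S181E and Y396E cells, in control (circles) and arsenite (triangles); filled points were called. In both mutants the control points of the 19S genes other than PSMD8 lie above their arsenite points, while most core genes have control and arsenite points close together, PSMA4 being an exception.

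Whether the responses to arsenite differed was tested as the difference of the log2 changes, an interaction term in the same fit. WT control libraries enter this difference as well as the differences described above, so these results are not independent. The response of S181E cells was smaller than that of WT cells for PSMC2, PSMD1, PSMD2, PSMD11 and PSMD12 and less negative for PSMG3, 6 of 43 genes where 16.4% of all tested genes were called. Y396E cells had a smaller response for PSMC1, PSMC2, PSMC3, PSMC6, PSMD1, PSMD2, PSMD11 and PSMD12, 8 of 43 where 21.5% of all tested genes were called. In both mutants the share of the 43 genes called was thus smaller than among all tested genes. All 13 smaller responses were of 19S genes, 5 of 17 in S181E and 8 of 17 in Y396E cells. Of all tested genes 9.41% had a lower response in S181E and 11.1% in Y396E cells. In the core 0 of 12 were called in either mutant by either tool, with 1 at an unadjusted p below 0.05 in each.

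The response of PSMD1 differed by -0.31 ± 0.09 in S181E (adjusted p = 0.0154, edgeR) and by -0.36 ± 0.09 in Y396E cells (adjusted p = 0.00498). PSMD11 had differences of -0.30 ± 0.07 in each (adjusted p = 0.00477 and 0.00292, edgeR), since it rose in WT cells, from the levels given above to 163, 170.0 and 172 CPM, and in S181E cells reached 195, 199 and 204 CPM from 181.4 to 188 CPM. In arsenite PSMD11 was not called between S181E and WT cells (0.25 ± 0.05, below the fold threshold). PSMD2 differed by -0.32 ± 0.10 in each mutant, PSMC2 by -0.29 ± 0.08 and -0.31 ± 0.08, and PSMD12 by -0.28 ± 0.07 and -0.27 ± 0.07. PSMC6 differed by -0.31 ± 0.09 in Y396E cells and by -0.24 ± 0.09 in S181E cells, where its adjusted p of 0.0517 (edgeR) missed the threshold.

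These calls were sensitive to single libraries. Without WT control replicate 2, in which PSMD2 was low, 2 of the 6 S181E calls held (PSMC2 and PSMD1) and 3 of the 8 Y396E calls (PSMC2, PSMC6 and PSMD1), whereas 9 and 10 were called without WT control replicate 1. Without Y396E arsenite replicate 3 the Y396E calls were 6, with PSMC1, PSMC3 and PSMC6 lost and PSMG3 added. PSMD1 was called in both mutants under every alternative tried, with or without any single library.

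Other genes of the pathway, from a list of 30 that the symbols do not select, were all tested. In WT cells 11 rose and 8 fell with arsenite, in RQ cells 14 and 8, in S181E cells 10 and 8 and in Y396E cells 10 and 9, where the shares of all tested genes that rose and fell were 36.3% and 35.9% in WT, 37.1% and 35.8% in RQ, 32.0% and 33.3% in S181E, and 32.9% and 32.9% in Y396E cells. The largest rises were of ZFAND2A, the arsenite-inducible zinc finger protein AIRAP that binds the proteasome (2.00 in WT), and VCP, the p97 unfoldase (1.83). VCP was at 72.6, 60.1 and 76.8 CPM in WT control and 254, 242 and 249.97 CPM in WT arsenite libraries, and its control level exceeded that of WT by 0.59 in S181E and 0.47 in Y396E on the log2 scale. ECPAS, a proteasome scaffold (1.07), the shuttle factors UBQLN2 (0.92) and UBQLN1 (0.63), the proteasome deubiquitinase USP14 (0.89), AKIRIN2, which aids nuclear import of proteasomes (0.86), and TXNL1, a thioredoxin bound to the 19S particle (0.67), also rose in WT cells.

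POMP, the maturation factor of the core, fell as well, with a log2 change of -0.39 in WT and between -0.49 and -0.38 in the others. SEM1, the small 19S subunit DSS1 whose symbol lies outside the PSM series, fell (-0.71). Of the 17 19S genes with PSM symbols, 15 rose in WT cells and 0 were called lower. MAFG (-1.08), MAFF (-0.76) and MAFK (-0.66), small MAF partners of NFE2L1 and NFE2L2, also fell. NFE2L1, the transcription factor known to induce proteasome genes, was at -0.06 and not called in WT cells, with 203, 193 and 174 CPM in control and 191, 177 and 179 CPM in arsenite libraries. It was not called in any population, which concerns its RNA and not its activity.

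In control cells 9 of the 30 were higher in S181E and 7 in Y396E than in WT cells, and 0 lower, where 15.7% and 14.5% of all tested genes were higher. By edgeR 16 and 12 had an unadjusted p below 0.05, and DESeq2 was not run on this list. The arsenite response was lower for 5 in S181E cells (FAF1, MAFF, UBQLN1, VCP and ZFAND2A) and for 7 in Y396E cells (these and NGLY1 and TXNL1), and higher for 0, with 11 at an unadjusted p below 0.05 in each, where 9.41% and 11.1% of all tested genes had a lower response. VCP differed by -0.49 and -0.37. MAFF fell in WT cells, so its lower response was a larger fall. Of 8 genes of antigen processing that interferon induces with the immunoproteasome, 6 were tested. Of those reported here, IRF1 (1.05) rose in WT cells and B2M (-0.82), TAPBP (-0.67) and TAP1 (-0.27) fell, while PSMB8, PSMB9, PSMB10, PSME1 and PSME2 were not called or were below the level. PSMC3IP, no proteasome gene, fell in all 4 populations (-0.56 ± 0.17 in WT), with a low 15.6 CPM in Y396E arsenite replicate 3. PSME3IP1 was not called in any comparison.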

How the data were processed

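Poly(A) RNA of 26 HCT116 libraries was sequenced as single reads. According to the labels and the paper's methods, the authors aligned reads to hg38 with STAR 2.7.11b and counted them with featureCounts (Subread 2.0.6), and the deposited values are raw counts per gene. Per the file headers, counting used GENCODE release 46 and strand setting 2. Reads in exons shared by genes on a strand, and reads with several alignments, were not counted under these settings. Symbols came from GENCODE release 44 (62541 of 63086 identifiers).

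The 9099 protein-coding genes above 10 CPM in 12 or more of the 24 libraries with a transgene were fitted together in edgeR 4.0.16 (R 4.3.3), with TMM factors of 0.865 to 1.086, 1 mean per group, 16 residual degrees of freedom, the quasi-likelihood test and Benjamini-Hochberg adjustment over all genes. The common biological coefficient of variation was 0.0682, and the median standard error was 0.076 to 0.078 on the log2 scale between groups and 0.11 for response differences. Called genes had an adjusted p under 0.05 and a fold above 1.2. Dishes were plated separately from 1 population per genotype, so p-values measure the spread between dishes. The fit was tested on simulated data in which few genes changed, up and down alike. That setting did not test the scaling where most genes change.

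The genes, role groups, pathway lists and motifs were chosen with earlier results of these data known. All genes with the symbols could be named, with values per library for the largest changes of each role group and for the catalytic subunits, activators, inhibitor and chaperones. PSMD11, PSMD13, PSMC2, PSMD2 and the pathway genes with values per library were chosen after their values were seen. Alternatives were DESeq2 1.42.0, its size factors (RLE), library totals only, a 1 CPM filter, no filter, only the groups compared, a replicate block, no fold threshold and leaving out each library. The immunoprecipitation libraries were not analysed here, and 1 gene of the antigen processing list is not reported here.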

Additional observations from a re-analysis of the deposited data

Results flagged for a closer look

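The arsenite responses of 2 mutants differed from that of WT cells for some genes, by the interaction term of the fit, and each is listed here as the log2 response of the mutant minus that of WT. In S181E cells the proteasome genes were PSMC2 (-0.29), PSMD1 (-0.31), PSMD11 (-0.30), PSMD12 (-0.28), PSMD2 (-0.32) and PSMG3 (0.32). In Y396E cells they were PSMC1 (-0.34), PSMC2 (-0.31), PSMC3 (-0.27), PSMC6 (-0.31), PSMD1 (-0.36), PSMD11 (-0.30), PSMD12 (-0.27) and PSMD2 (-0.32).

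Of the pathway list, FAF1 (-0.32), MAFF (-0.41), UBQLN1 (-0.35), VCP (-0.49) and ZFAND2A (-0.47) differed in S181E cells. In Y396E cells FAF1 (-0.32), MAFF (-0.48), NGLY1 (-0.30), TXNL1 (-0.28), UBQLN1 (-0.35), VCP (-0.37) and ZFAND2A (-0.49) differed. Of the antigen processing list, B2M (0.43), TAP1 (0.32), TAPBP (0.31) and IRF1 (-0.59) differed in S181E cells and B2M (0.41), TAP1 (0.38), TAPBP (0.27) and IRF1 (-0.78) in Y396E cells.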

How the results depend on the processing

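Of the 138 gene comparisons called among the members, 0 changed sign under 31 alternatives and 109 were called under all of them. With library totals alone as the scale, the all-gene median became 0.15 and 0.16 for arsenite in WT and RQ cells, 0.18 and 0.14 for S181E and Y396E against WT in control cells and -0.14 and -0.12 for their response differences. It moved the higher share of all calls from 50.3% to 61.6% (arsenite, WT), from 50.9% to 62.0% (arsenite, RQ), from 50.4% to 83.6% and from 50.5% to 81.1% (S181E and Y396E, control), from 38.7% to 55.9% (S181E, arsenite), from 70.0% to 38.3% and from 89.9% to 77.7% (RQ, control and arsenite), and from 42.6% to 12.98% and from 48.1% to 18.2% (response differences of S181E and Y396E). The members called then numbered 35 and 32 in control cells and 17 in arsenite (S181E), and 15 and 14 for the response differences, with PSMG3 lost. Of all tested genes 42.7% were then called for S181E against WT in control cells. Without the fold threshold 31 were called for arsenite in S181E and in Y396E cells, 33 and 27 for S181E against WT in control and arsenite, 31 and 21 for Y396E, and 12 for the S181E response difference. The matching shares of all genes are not given here. At an unadjusted p below 0.05, arsenite had 33 members and 7094 of all 9099 tested genes in S181E, and 31 and 7181 in Y396E cells. S181E against WT had 34 and 4915 in control and 29 and 3098 in arsenite. Y396E against WT had 33 and 4649, then 25 and 4104. The S181E response difference had 16 and 3052. RLE size factors and DESeq2 each called 7 for S181E against WT in arsenite, and the fit of only the groups compared called 5 for the Y396E response difference. Leaving out 1 library gave 2 to 5 calls for S181E against WT in arsenite, 2 to 9 for the S181E response difference and 3 to 11 for that of Y396E, the highest without Y396E arsenite replicate 2. The cause of these changes was not tested. The filters of 1 CPM and none added PSMA7, PSMB2 and PSME3 to the falls in WT cells.

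The replicate number as a block changed the count of members called in 0 of 13 comparisons. Deviations of same-numbered libraries correlated above 0.1 in 11 of 30 pairs and 24 of 30 correlated best with their own number, every pair of RQ with WT being above 0.1. The scarcest tested member, PSMG4, had at least 13.4 CPM, whereas PSMB8, PSMB10 and the shared-exon genes PSMA2 and PSMA6 were below the level for a test. The spread among 3 dishes limits differences near the fold threshold.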
